A study of Mus musculus with 16 samples.

Results

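Cxcr2, Cxcr4, Cxcr1, Ccr1 and Ccrl2, 5 chemokine receptor genes of neutrophils, were followed through 24 RNA sequencing libraries of sorted mouse neutrophils. They are 5 of the 49315 genes listed in the count files, were taken by name and matched by Ensembl identifier, and were not chosen by a threshold on their values. The libraries came from the blood or the lung of male WT and αD KO mice of 8 to 12 weeks, either untreated (0h) or 12 hours past cecal ligation and puncture (CLP), a surgery that causes polymicrobial abdominal sepsis. All 8 groups shared the same sort, on Ly6G+, CD11b+ and CD45.2+ cells, and no cells outside the sort were sequenced. Each group held 3 libraries from 2 listed samples: sample 1 has a pair of count files (libraries 1a and 1b) and sample 2 a single one (library 2). The labels do not say that libraries are separate animals, so p-values measure only the spread between these libraries, which may be technical.

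Chemokine receptors are G protein-coupled receptors that steer leukocytes along gradients of small secreted proteins. In neutrophils, Cxcr2 drives release from the bone marrow and recruitment into tissue, while Cxcr4 holds cells in the marrow and brings ageing neutrophils back to it, so that the balance of both sets how many neutrophils circulate. Receptor levels on the surface also depend on internalisation and shedding, which RNA counts do not measure.

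The regions just before the transcription starts of 4 of the 5 genes are shown because Cxcr4 and Cxcr1 were lower together in blood after CLP, Ccrl2 stood higher in lung than in blood, and Cxcr2 is the reference of the Cxcr2 to Cxcr4 ratio. The sequences are the 250 bases upstream of the RefSeq start (build GRCm38.p6), read 5′ to 3′ on the strand of the gene. Capitals mark matches, on either strand, to the TATA box TATAAA, the GC box GGGCGG, the PU.1 core GAGGAA or the κB motif.
Cxcr2, chr1:74153744-74153993, plus strand: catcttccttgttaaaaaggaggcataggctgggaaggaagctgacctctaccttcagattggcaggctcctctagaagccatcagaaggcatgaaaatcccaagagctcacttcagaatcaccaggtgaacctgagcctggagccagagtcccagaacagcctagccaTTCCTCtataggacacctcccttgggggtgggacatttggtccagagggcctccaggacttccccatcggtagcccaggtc
Cxcr4, chr1:128592300-128592549, minus strand: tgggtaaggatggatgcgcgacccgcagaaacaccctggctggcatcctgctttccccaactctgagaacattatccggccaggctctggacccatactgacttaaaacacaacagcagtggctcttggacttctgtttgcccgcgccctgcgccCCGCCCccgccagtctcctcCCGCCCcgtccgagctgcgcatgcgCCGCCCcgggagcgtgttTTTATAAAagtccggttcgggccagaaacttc
Cxcr1, chr1:74194632-74194881, minus strand: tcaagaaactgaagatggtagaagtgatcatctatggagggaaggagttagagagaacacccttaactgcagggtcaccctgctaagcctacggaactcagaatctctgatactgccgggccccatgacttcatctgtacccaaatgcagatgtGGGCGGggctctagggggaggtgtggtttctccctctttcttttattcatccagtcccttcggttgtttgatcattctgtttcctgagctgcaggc
Ccrl2, chr9:111057519-111057768, minus strand: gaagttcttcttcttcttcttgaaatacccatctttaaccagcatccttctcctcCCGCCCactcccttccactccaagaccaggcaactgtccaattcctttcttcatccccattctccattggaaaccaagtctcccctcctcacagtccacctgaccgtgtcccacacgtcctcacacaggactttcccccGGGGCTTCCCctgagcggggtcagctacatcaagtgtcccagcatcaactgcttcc
The Cxcr4 window held a TATA box within 32 bases of the start, where overlapping forward and reverse matches lie, and 3 GC boxes, and its GC content was 61.2%. A TATA box was in 12.4% and a GC box in 32.7% of the 32851 upstream windows of the same length. The Cxcr2 window had a PU.1 core, the Cxcr1 window a GC box, and the Ccrl2 window a GC box and a κB match, motifs found in 23.3% (PU.1 core) and 7.25% (κB) of all windows. The Ccr1 window, chr9:123968693-123968942 on the minus strand, had a PU.1 core and a κB match and a GC content of 43.6%, against a median of 52.4% over all windows. The E-box CACGTG, the AP-1 motif TGANTCA and the C/EBP motif TTNNGCAA were searched too and had no match in the 5 windows, against 6.02%, 6.75% and 9.56% of all windows. For Ccrl2 the table lists 3 starts, of which the first is shown. A match describes letters only, since no binding was measured here.

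Total counts were 5753476 to 29984954 per library (median 18741144), and library 1b had the most genes with any count in each of the 8 groups (29162 to 38844, against 17132 to 32666 in the other 16 libraries, so that the ranges overlap). Itgad, which encodes αD, had 0.0522 to 4.08 CPM (counts scaled to the same library size) in the 12 libraries labelled WT and 12.6 to 96.1 CPM in the 12 with the αD KO label. That is against the label if the deleted part is counted, so the genotype is named here only as the label of a library. The 8 neutrophil marker genes, among them S100a8, S100a9 and Csf3r, were detected in all libraries and summed to 35441 to 189524 CPM. Along the axis from the WT lung 0h mean (position 0) to the WT lung 12-hour mean (position 1), over the 1340 genes called in that comparison, 3 libraries lay at the other time point's end. These were library 2 of lung 0h labelled αD KO (1.02) and libraries 1a (0.1) and 2 (0.18) of lung 12 hours labelled αD KO. The other libraries labelled αD KO were at 0.15 and 0.11 (0h) and 0.85 (12 hours), and fitted differences that rest on these groups are also given without those 3 libraries. Because these were picked by their place between the time means, the values without them are descriptions with no test. By that choice, time differences among the rest are larger. Label differences in lung moved nearer to 0 for some receptors, such as Cxcr1, and further from 0 for others. Cxcr4 at 12 hours was among the latter (log2 0.81 with all libraries and -1.94 without the 3). Lung at 12 hours labelled αD KO is left with library 1b alone.

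Per kilobase of exon, Cxcr2 was the most abundant of the receptors, with a median level of 710 CPM per kilobase over the 24 libraries. Ccr1 followed at 465, Ccrl2 at 124 and Cxcr4 at 45.6, and Cxcr1 was lowest at 6.87. The order Cxcr2, Ccr1, Ccrl2, Cxcr4, Cxcr1 was found in 16 of 24 libraries. Cxcr2 was highest in 19 and Cxcr1 lowest in all 24, while Ccrl2 passed Cxcr2 in 4 libraries and Ccr1 in 5. On the CPM scale, used from here on for a gene compared between libraries, Ccr1 (522 to 2349) and Cxcr2 (1221 to 4699) varied least, by 4.5-fold and 3.85-fold from the lowest to the highest library. Cxcr4 varied 30.7-fold, Cxcr1 49.1-fold and Ccrl2 88.1-fold. In bulk RNA, fewer cells of a type and less RNA per cell cannot be told apart.

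**Figure D1:**
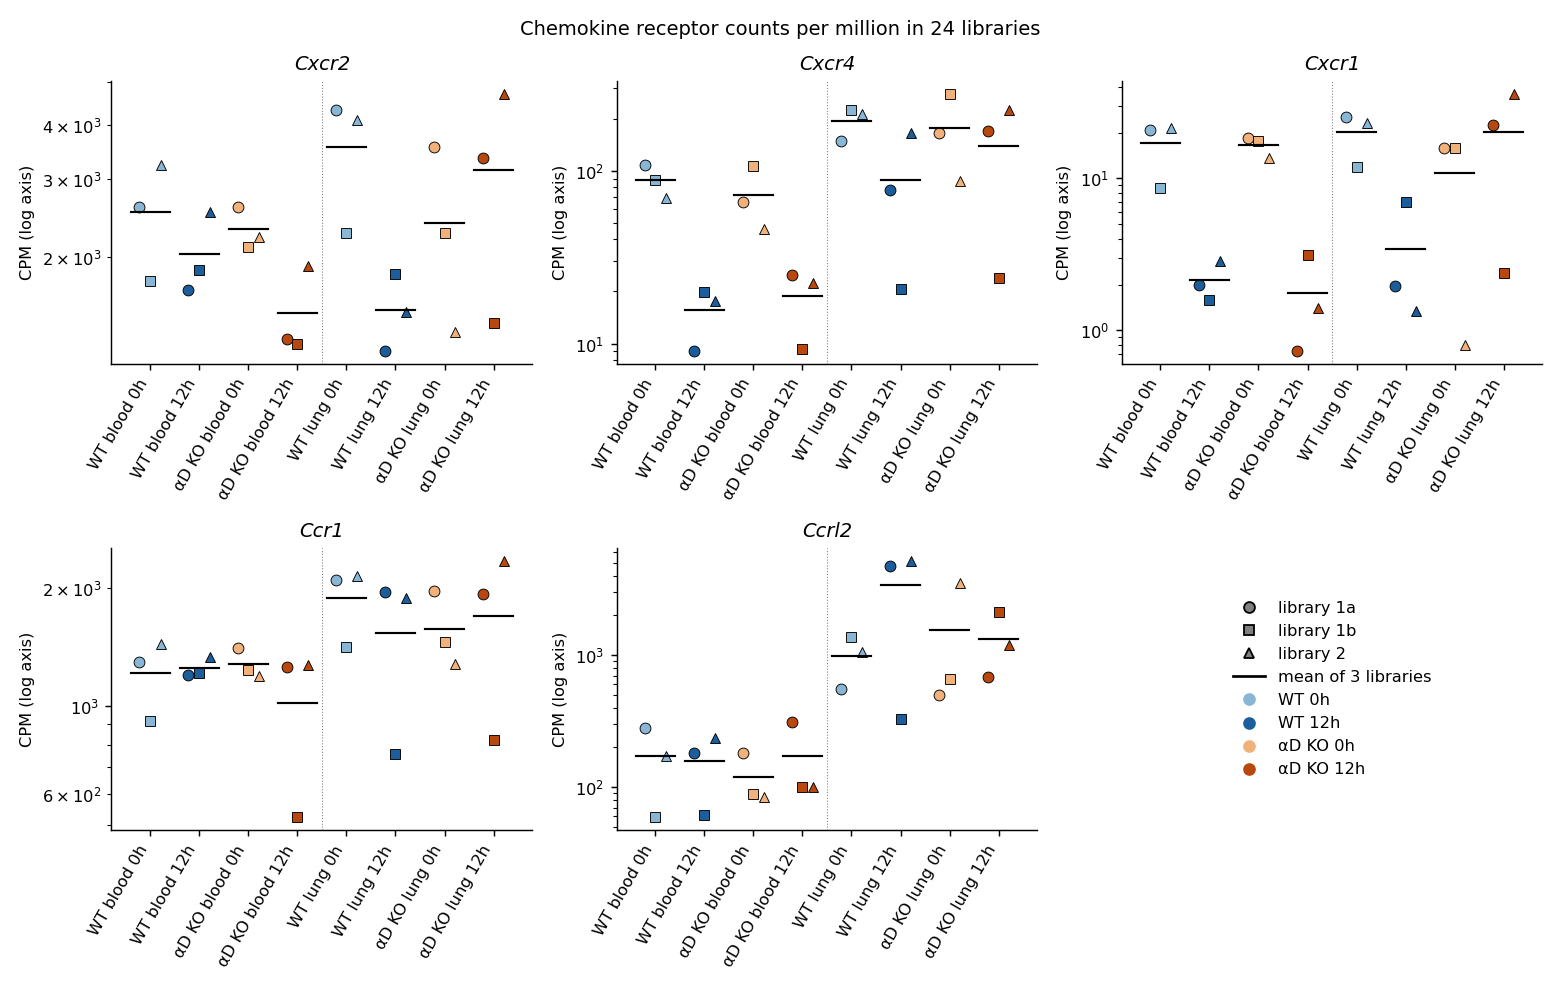
CPM of the 5 receptors on log axes in each of the 24 libraries, by group, with the symbol showing the library (1a, 1b or 2) and the bar the mean of 3. Cxcr4 and Cxcr1 of the 12-hour blood libraries lay below all 0h blood libraries in both genotype labels, and Ccrl2 of each lung library lay above each blood library.

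The first question was how the receptors differ in circulating neutrophils 12 hours after CLP. Cxcr4 and Cxcr1 fell in blood under both genotype labels, Cxcr4 by 5.86-fold (WT) and 4.08-fold (αD KO) and Cxcr1 by 8.28-fold and 9.89-fold, whereas Cxcr2, Ccr1 and Ccrl2 did not pass the test. In WT blood, 2 of the 5 receptors were called lower, against 5.75% of the 14625 genes tested, and the libraries of these 2 did not overlap between times, against 38.0% of genes. In blood labelled αD KO, 2 of 5 were called lower, against 4.99% of 14156 genes, and the libraries of 3 (Cxcr2 as well) did not overlap, against 33.3% of genes. A gene was called at an adjusted p under 0.05 and a change over 2-fold, by edgeR's quasi-likelihood test with Benjamini-Hochberg adjustment over all genes tested.

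Cxcr4, the Cxcl12 receptor and retention signal whose upstream region is shown above (ENSMUSG00000045382, chr1:128588199-128592293, minus strand, GRCm38), had 108, 87.8 and 69.8 CPM in WT blood at 0h (libraries 1a, 1b and 2). At 12 hours it had 9.08, 19.9 and 17.6 CPM. All 12-hour libraries were lower than all 0h libraries, with means of 15.5 ± 5.69 against 88.7 ± 19.3 CPM (SD, n = 3 libraries of 2 samples). The edgeR log2 fold change was -2.55 (SE 0.38, adjusted p = 0.00705). In blood labelled αD KO, Cxcr4 had 65.8, 106 and 45.8 CPM at 0h and 24.9, 9.26 and 22.3 CPM at 12 hours. The times again did not overlap, and the log2 fold change was -2.03 (SE 0.49, adjusted p = 0.0407). When single libraries were omitted from the 6, Cxcr4 had adjusted p of 0.00674 to 0.14 in WT blood, with the call lost in 4 of 6, and 0.0552 to 0.174 in blood labelled αD KO, lost in 6 of 6. The WT call was lost without library 1a or 2 of either time, and the log2 fold changes stayed at -2.91 to -2.20 (WT) and -2.21 to -1.56 (αD KO). With all 8 groups in a single fit, the adjusted p of Cxcr4 was 0.0718 in WT blood and 0.259 under the αD KO label. With the files of sample 1 summed, the call under the αD KO label was lost (-1.51, SE 0.37, adjusted p = 0.087).

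Cxcr1, which lies beside Cxcr2 on chromosome 1 and encodes a related receptor for CXC chemokines (ENSMUSG00000048480, chr1:74191785-74194631, minus strand), was the lowest of the receptors, with 12 to 967 counts per library. In WT blood it had 20.9, 8.65 and 21.4 CPM at 0h and 1.98, 1.58 and 2.86 CPM at 12 hours. Even the highest 12-hour library was below the lowest 0h library. The log2 fold change was -3.05 (SE 0.49, adjusted p = 0.00881 by edgeR). Blood labelled αD KO had 18.5, 17.5 and 13.6 CPM at 0h and 0.734, 3.15 and 1.41 CPM at 12 hours, also without overlap. The log2 fold change there was -3.31 (SE 0.59, adjusted p = 0.0162). Leaving out a library gave adjusted p of 0.00203 to 0.182 for WT, lost in 4 of 6, and of 0.00831 to 0.104 for αD KO, lost in 3 of 6. The losses came without library 1a or 2 of either time in WT, and without library 1a of either time or library 2 at 12 hours for αD KO. With all 8 groups in a single fit, Cxcr1 had adjusted p of 0.077 and 0.0947.

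Cxcr2, the main receptor of neutrophils for Cxcl1, Cxcl2 and their relatives (ENSMUSG00000026180, chr1:74153989-74161246, plus strand), had 2595, 1762 and 3229 CPM in WT blood at 0h and 1683, 1864 and 2533 CPM at 12 hours. These ranges overlapped, and the log2 fold change was -0.37 (SE 0.41, adjusted p = 0.584 by edgeR). In blood labelled αD KO, the 0h values of 2593, 2106 and 2222 CPM all lay above the 12-hour values of 1302, 1265 and 1902 CPM. The log2 fold change of -0.69 (SE 0.29) had an unadjusted p of 0.0454 and an adjusted p of 0.172. Cxcr2 therefore did not pass the test in either blood comparison.

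Ccr1, a receptor for Ccl3, Ccl6 and Ccl9 (ENSMUSG00000025804, chr9:123962124-123968692, minus strand), had 1299, 918 and 1440 CPM in WT blood at 0h and 1204, 1215 and 1334 CPM at 12 hours. The 12-hour values lay inside the 0h range, and the log2 fold change was -0.01 (SE 0.35, adjusted p = 0.983 by edgeR). In blood labelled αD KO it was -0.39 (SE 0.38, adjusted p = 0.543), with 1 low library of 522 CPM at 12 hours. Ccrl2, an atypical receptor that binds chemerin and can pair with Cxcr2 without signalling by itself (ENSMUSG00000043953, chr9:111054486-111057519, minus strand), had 59.0 to 283 CPM at 0h and 61.2 to 236 CPM at 12 hours in WT blood. Its log2 fold change was -0.17 (SE 0.65, adjusted p = 0.882), and in blood labelled αD KO 0.49 (SE 0.52, adjusted p = 0.572). Library 1b was the lowest for Ccrl2 in both WT blood groups.

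Other cell types moved in the same blood libraries, and their part in the lower Cxcr4 and Cxcr1 was not tested. The 8 B cell markers summed to 345 to 1199 CPM in WT blood at 0h and 45.2 to 236 CPM at 12 hours, and to 369.8 to 1469 and 39.0 to 123 CPM in blood labelled αD KO, and all 8 were detected at each time. Ighm made up most of this sum (median 291 CPM over the libraries, at most 12.7 for any of the other 7). In WT blood it was the only B cell marker called lower and 2 of 8 were higher, with a median of -0.65, and under the αD KO label Ighm and Ms4a1 were called lower and 0 of 8 were higher. The 11 monocyte and macrophage markers overlapped between times in WT blood (549.9 to 1136 and 584 to 945 CPM), where Ly6c2 was called higher and Csf1r lower, while under the αD KO label they summed to 695 to 1235 CPM at 0h and 499 to 654 CPM at 12 hours, with 4 of 10 tested called lower (Csf1r, Adgre1, C1qa and C1qc) against 4.99% of all genes. The 10 T and NK cell markers summed to 18.7 to 399 CPM at 0h and 9.62 to 15.9 CPM at 12 hours under that label, with 3 of 8 tested called lower (Lck, Cd4 and Ncr1) against the same share. Library 2 of blood 0h labelled αD KO was the highest of all libraries for 10 of 10 T and NK cell, 7 of 8 B cell, 4 of 5 dendritic cell and 3 of 5 platelet markers. Without it, the call of Cxcr4 was lost (-2.15, adjusted p = 0.0552 by edgeR) and Cxcr1 was still called lower. The 6 erythroid markers ranged from 23.5 to 8842 CPM over the blood libraries. The 5 dendritic cell markers summed to 14.4 to 40.8 CPM at 0h and 1.36 to 5.51 CPM at 12 hours in WT blood. Among 9 eosinophil, basophil and mast cell markers the sum was 60.2 to 64.9 CPM at 0h and 5.27 to 8.34 CPM at 12 hours in WT blood, and 45.1 to 59.5 and 2.81 to 5.22 CPM under the αD KO label. That sum was mostly Siglecf (median 31.4 CPM over the libraries), while the eosinophil granule genes Epx and Prg2 reached at most 0.684 and 0.342 CPM. The 9 granule genes of immature neutrophils summed to 353 to 7314 CPM at 0h and 81105 to 168696 CPM at 12 hours in WT blood, and to 628 to 19720 and 39069 to 109104 CPM under the αD KO label. Their sum held mostly secondary granule genes such as Ngp, whose highest library had 77687 CPM. The 4 primary granule genes Elane, Mpo, Prtn3 and Ctsg stayed at or below 9.71 CPM in every library.

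**Figure D2:**
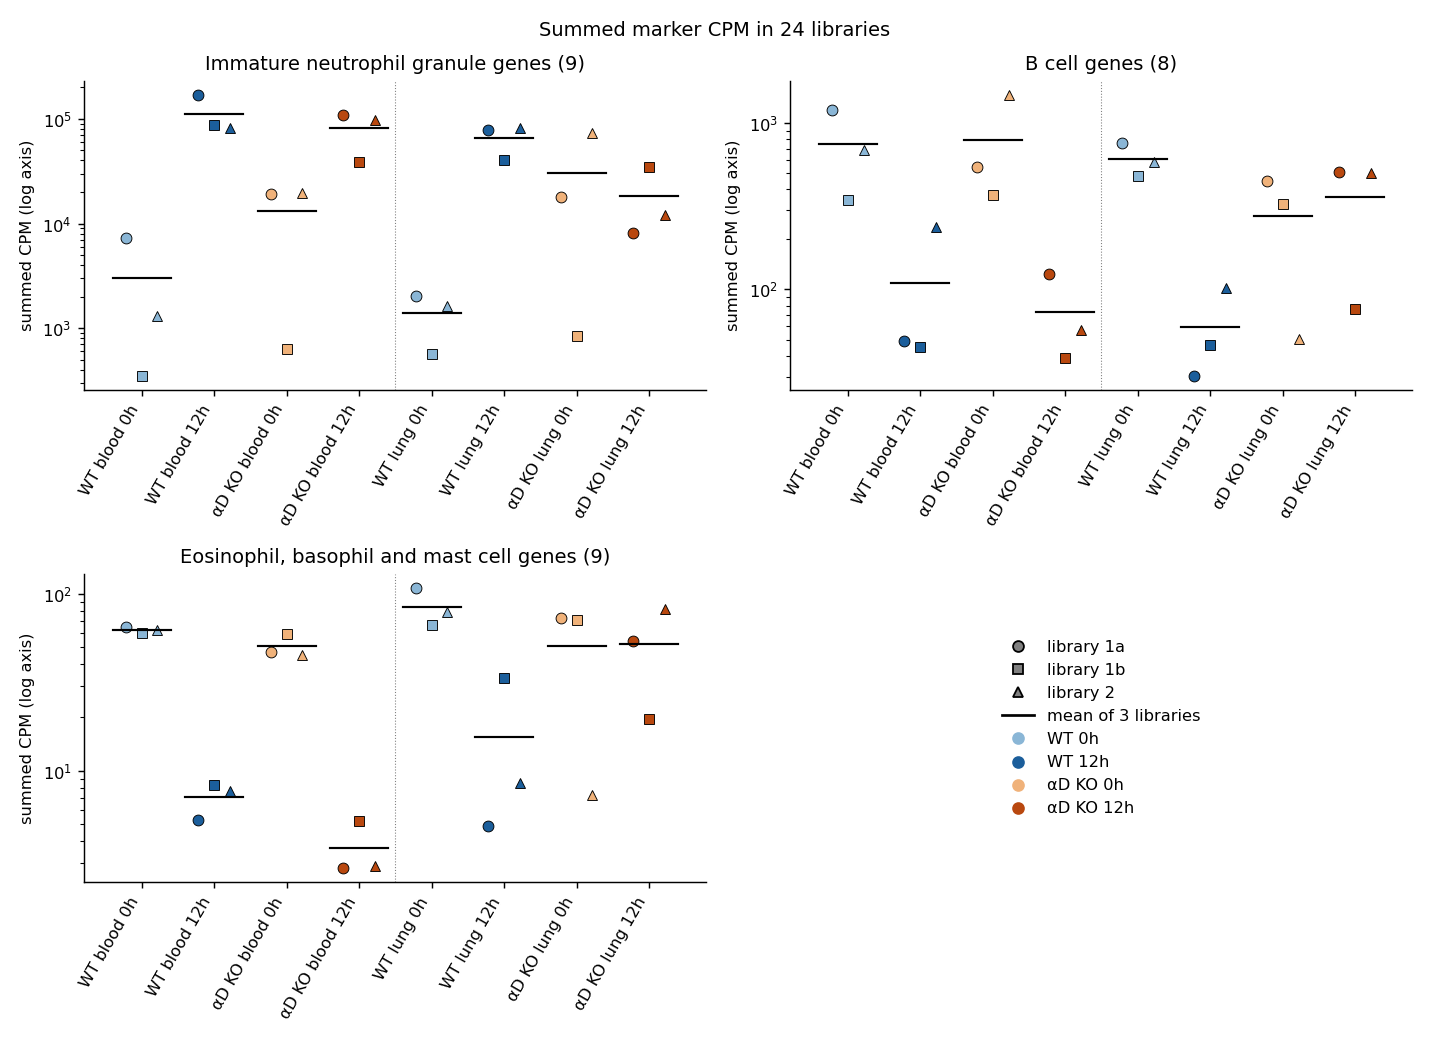
Summed CPM of 3 marker lists on log axes in each library, by group (symbol for library, bar for the mean of 3). In blood, the granule gene sum was higher and the B cell and eosinophil sums were lower at 12 hours than at 0h in each library of both genotype labels.

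In lung, no receptor passed the test between 12 hours and 0h. In WT lung edgeR called 0 of 5, against 9.02% of 14859 genes. Cxcr2 and Cxcr1 had unadjusted p under 0.05, as did 26.6% of all genes. DESeq2 called these 2, against 5.6% of the 42018 genes it gave a p. The libraries of Cxcr2 and Cxcr1 did not overlap, 2 of 5 members against 32.1% of genes. In lung labelled αD KO, 0 of 5 were called by edgeR and by DESeq2, 0 had an unadjusted p under 0.05, and 0 did not overlap. There, edgeR called 0% of 17939 genes, with 0.401% at an unadjusted p under 0.05, and 3.53% of genes did not overlap.

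Cxcr2 had 4319, 2265 and 4101 CPM in WT lung at 0h and 1221, 1827 and 1496 CPM at 12 hours. All 12-hour libraries were lower, and the log2 fold change of -1.23 (SE 0.46) had an adjusted p of 0.129 by edgeR and, at -1.28 (SE 0.42), 0.0169 by DESeq2. For Cxcr1 the WT lung values were 25.2, 11.8 and 23.3 CPM at 0h and 1.95, 6.98 and 1.35 CPM at 12 hours, with a log2 fold change of -2.55 (SE 0.69, adjusted p = 0.0557 by edgeR and 0.00261 by DESeq2). Library 1b at 12 hours was the highest of its group for both genes. Cxcr4 had 148, 224 and 213 CPM at 0h and 77.7, 20.8 and 166 CPM at 12 hours in WT lung, where library 2 lay inside the 0h range, with a log2 fold change of -1.17 (SE 0.62, adjusted p = 0.271 by edgeR).

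Ccrl2 had 549, 1367 and 1048 CPM in WT lung at 0h and 4706, 329.6 and 5194 CPM at 12 hours. Libraries 1a and 2 at 12 hours were above, and library 1b below, all 0h libraries, and the log2 fold change was 1.76 (SE 0.86, adjusted p = 0.234 by edgeR). Ccr1 had 1413 to 2142 CPM at 0h and 758 to 1952 CPM at 12 hours, with a log2 fold change of -0.32 (SE 0.47, adjusted p = 0.72). The calls in WT lung depended on how library 1b was used. Without it, edgeR called Cxcr2 (log2 fold change -1.53, SE 0.36, adjusted p = 0.018), Cxcr1 (-3.74, SE 0.44, adjusted p = 0.00132) and Ccrl2 (2.16, SE 0.42, adjusted p = 0.00878) in WT lung, 3 of 5 receptors against 25.3% of 15570 genes (9.02% with all libraries). The same 3 were called with library 1b kept and summed with 1a (adjusted p of 0.0232 for Cxcr2, 0.0191 for Cxcr1 and 0.0299 for Ccrl2), where 2337 of 19014 genes were called. That library was at 0.7 on the axis between the WT lung means. Its neutrophil markers summed to 175080 CPM, against 40052 to 83019 CPM in the other 5 WT lung libraries. Its monocyte and macrophage markers summed to 1082 CPM, against 519 to 1009 CPM in the other 5. Of that sum 839 CPM was Ly6c2, which was called higher in WT lung at 12 hours while Csf1r and Adgre1 were called lower. The B cell markers summed to 483 to 753 CPM in WT lung at 0h and 30.4 to 102 CPM at 12 hours, and the eosinophil, basophil and mast cell markers to 66.6 to 108 and 4.89 to 33.3 CPM, highest at 12 hours in library 1b. The part of these cells in the receptor values was not tested.

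In the lung libraries labelled αD KO, library 2 at 0h, at position 1.02, had 1346 CPM of Cxcr2, 87.2 of Cxcr4, 0.801 of Cxcr1 and 3527 of Ccrl2. The other 0h libraries, 1a and 1b, had 3558 and 2267 CPM of Cxcr2, 165 and 278 of Cxcr4, 15.9 and 15.8 of Cxcr1 and 498 and 661 of Ccrl2. At 12 hours libraries 1a and 2, at 0.1 and 0.18, had 3362 and 4699 CPM of Cxcr2 and 22.6 and 36.0 CPM of Cxcr1, and library 1b, at 0.85, had 1411 and 2.39 CPM. Those times overlapped for all 5 receptors, and the log2 fold changes were 0.43 for Cxcr2 (SE 0.57), -0.33 for Cxcr4 (SE 0.75), 0.95 for Cxcr1 (SE 1.09), 0.14 for Ccr1 (SE 0.48) and -0.22 for Ccrl2 (SE 0.84), each with an adjusted p of 1 by edgeR. Without the 3 libraries that lay apart, which leaves 2 at 0h and 1 at 12 hours, the fitted values were -1.20 for Cxcr2, -3.30 for Cxcr4, -2.85 for Cxcr1, -1.20 for Ccr1 and 1.76 for Ccrl2. No test is given for these, since the choice of libraries fixes their direction.

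**Figure D3:**
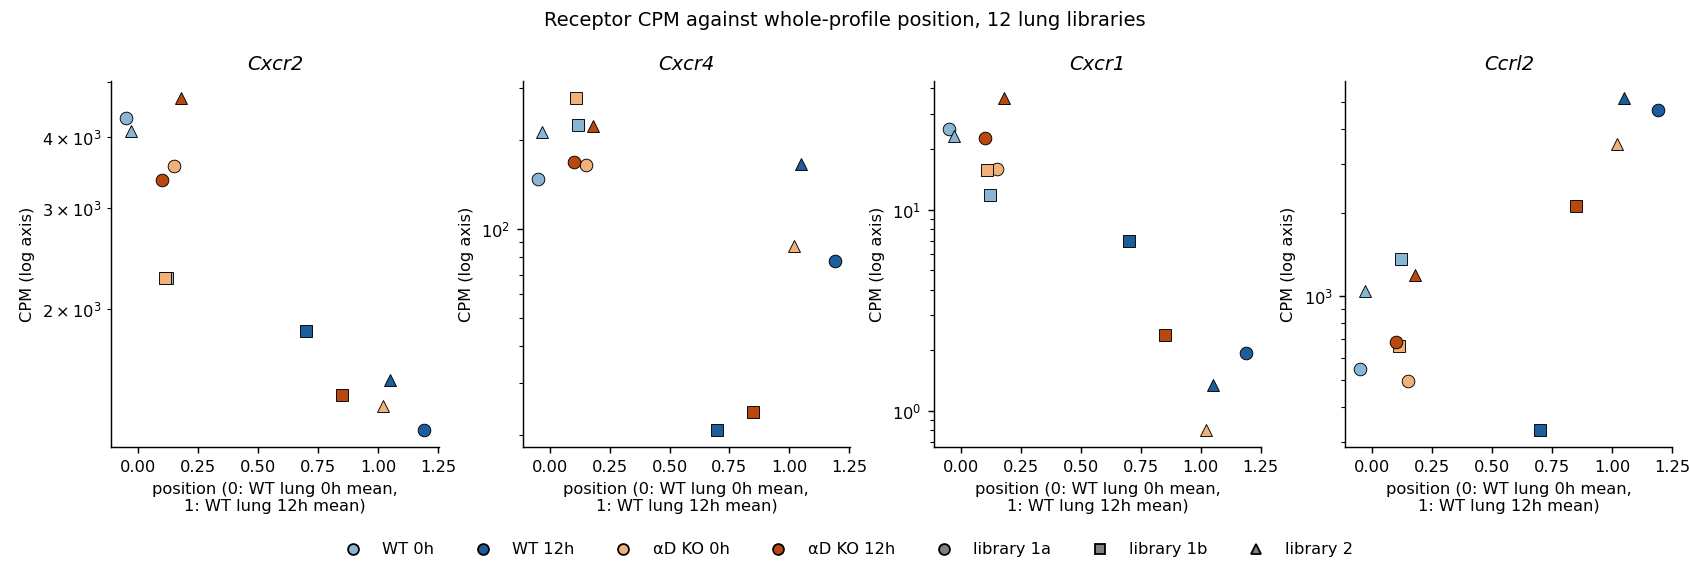
CPM (log axes) of Cxcr2, Cxcr4, Cxcr1 and Ccrl2 in the 12 lung libraries against the position of the whole profile between the WT lung 0h mean (0) and the WT lung 12-hour mean (1), colour by label and symbol by library. Cxcr1 lay at 11.8 to 36.0 CPM in the libraries at positions up to 0.18 and at 0.801 to 6.98 CPM in those at 0.7 and above.

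The tissue comparison asked whether neutrophils in lung differ from those in blood of the same group. Averaged over the 4 genotype and time strata, Ccrl2 and Cxcr4 were higher in lung, Ccrl2 by 10.1-fold (log2 3.33, SE 0.50, adjusted p = 0.000822 by edgeR) and Cxcr4 by 3.82-fold (log2 1.93, SE 0.36, adjusted p = 0.00599). These 2 of 5 were called higher, against 1.39% of 27145 genes, and the median log2 difference of all genes was 0.19. Cxcr2 (0.24, SE 0.26, adjusted p = 0.871), Ccr1 (0.45, SE 0.26, adjusted p = 0.575) and Cxcr1 (0.87, SE 0.43, adjusted p = 0.429) were not called. Without the 2 lung groups labelled αD KO, Ccrl2 had 3.41 (adjusted p = 0.0867) and Cxcr4 1.77 (adjusted p = 0.157). Leaving out only the 3 libraries that lay apart gave 3.17 for Ccrl2 and 1.39 for Cxcr4, both below the values with all libraries and given without a test. Lung structural markers summed to 22.9 to 323 CPM in blood and 77.8 to 1218 CPM in lung, the highest in library 1a of lung 0h labelled αD KO. In WT, 9 of these 13 genes were higher in lung at 0h (median log2 difference 0.91) and 13 of 13 at 12 hours (median 3.53). At 12 hours in WT 1 of the 13, Epas1, was called higher, against 0.0442% of genes. The part of these markers in Ccrl2 and Cxcr4 was not tested.

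No stratum passed on its own by edgeR. At 0h in WT, the lung values of Ccrl2 given above were all higher than the blood values of 283, 59.0 and 171 CPM, with a log2 fold change of 2.53 (SE 0.61, unadjusted p = 0.00436, adjusted p = 0.999). Cxcr4 in WT lung was also above blood in each library, with a log2 fold change of 1.07 (SE 0.28, unadjusted p = 0.00703, adjusted p = 0.999). These 2 of 5 without overlap stand against 6.85% of genes. By edgeR 0 of 5 and 0% of 15967 genes were called (unadjusted p fell under 0.05 for 2.54%), while DESeq2 called Ccrl2 (2.53, SE 0.56, adjusted p = 0.00377), 1 of 5 against 0.104% of genes.

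At 12 hours in WT, Cxcr4 had a lung to blood log2 fold change of 2.46 (SE 0.67, adjusted p = 0.15 by edgeR) and Ccrl2 of 4.38 (SE 0.98, adjusted p = 0.121). Both were above blood in every library, 2 of 5 against 23.7% of genes. By edgeR 0 of 5 were called, against 0.0442% of 13590 genes, and these 2 had unadjusted p under 0.05, as did 18.1% of genes. DESeq2 called both (Cxcr4 2.55, SE 0.66, adjusted p = 0.00444 and Ccrl2 4.45, SE 0.79, adjusted p = 4.55e-06), against 2.16% of genes. With the library number as a replicate block, Ccrl2 was called at 3.91 (SE 0.57, adjusted p = 0.0358), against 0.478% of genes. Without library 1b of WT lung at 12 hours, edgeR called Cxcr4 (2.90, SE 0.45, adjusted p = 0.00599) and Ccrl2 (4.90, SE 0.54, adjusted p = 0.00265), 2 of 5 against 20.2% of 14435 genes.

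Under the αD KO label at 0h, Ccrl2 had 498, 661 and 3527 CPM in lung and 182, 89.1 and 84.8 CPM in blood. Each lung library was higher, 1 of 5 members without overlap against 7.15% of genes, and the log2 fold change was 3.73 (SE 0.88, adjusted p = 1 by edgeR). By edgeR 0 of 5 and 0% of 19000 genes were called (unadjusted p fell under 0.05 for 2.91% and for Ccrl2 and Cxcr4), while DESeq2 called Ccrl2 (3.77, SE 0.80, adjusted p = 0.000812), 1 of 5 against 0.265% of genes. Without the libraries that lay apart the log2 fold change was 2.30.

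At 12 hours under that label, Ccrl2 had 686, 2121 and 1199 CPM in lung and 313, 100.1 and 101 CPM in blood, the only 1 of 5 members without overlap, against 27.8% of genes. edgeR called 0 of 5 and 0.0548% of 14592 genes. Cxcr4 (2.85, SE 0.76, adjusted p = 0.109), Cxcr1 (3.53, SE 0.94, adjusted p = 0.109) and Ccrl2 (2.96, SE 0.65, adjusted p = 0.092) had unadjusted p under 0.05, as did 22.2% of genes. DESeq2 called these 3, against 3.07% of genes. Lung Cxcr4 (169, 24 and 223 CPM) and Cxcr1 (22.6, 2.39 and 36.0 CPM) were lowest in library 1b, inside the blood ranges of 9.26 to 24.9 and 0.734 to 3.15 CPM. Without libraries 1a and 2, which lay apart, the log2 fold changes were -0.01 for Cxcr4, 0.14 for Cxcr1 and 3.27 for Ccrl2, from 1 lung library and with no test, and without library 1b they were 3.34, 4.05 and 2.43, each called, against 11.2% of 15144 genes.

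**Figure D4:**
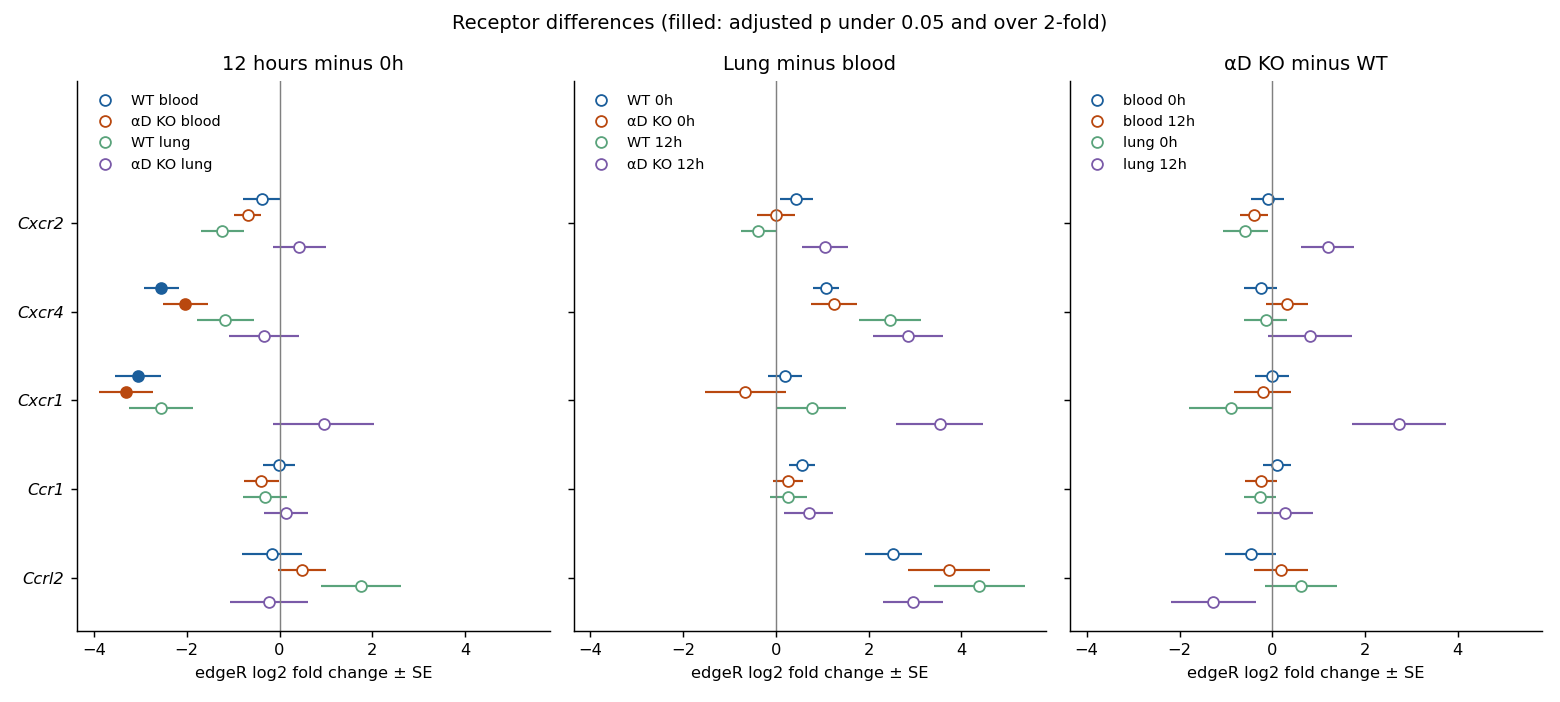
edgeR log2 fold changes with standard errors (bars) of the 5 receptors in the 12 comparisons of a pair of groups, for time, tissue and genotype label. Filled points passed an adjusted p under 0.05 and a 2-fold change, and these were Cxcr4 and Cxcr1 in the blood of both genotype labels.

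Averaged over the 4 strata, the time comparison called Cxcr4 lower (log2 -1.33, SE 0.36, adjusted p = 0.0173 by edgeR) and Cxcr1 lower (-1.90, SE 0.44, adjusted p = 0.00627), 2 of 5 against 3.65% of 27145 genes. The Cxcr4 call was lost without library 1b of blood at 0h labelled αD KO (-1.20, adjusted p = 0.0583) and, at the 2-fold limit, with libraries 1a and 2 alone (-1.0, adjusted p = 0.00831). The median of all genes in this contrast was -0.51 (and -0.65 with RLE scaling), and the values given are before subtracting it. Cxcr2 (-0.36, SE 0.26, adjusted p = 0.448) lay above that median, and Ccrl2 had 0.58 (SE 0.46, adjusted p = 0.486). Ccr1 had a fitted value of 0.00 and an adjusted p of 1. Without the 3 libraries that lay apart, Cxcr4 had -2.08 and Cxcr1 -2.88, larger by the choice of libraries and given without a test.

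Whether the change with time differed between tissues or genotype labels was tested by interaction terms, and edgeR and DESeq2 each called 0 of 5 receptors in the 3 terms, with 0, 0 and 2 at unadjusted p under 0.05. The median of all genes in the tissue term was 0.56, and 0.73 with RLE scaling. For lung against blood in WT, edgeR called 0% of 23497 genes (5.49% at an unadjusted p under 0.05), and the differences were 1.38 for Cxcr4 (SE 0.83, adjusted p = 0.876) and 1.83 for Ccrl2 (SE 1.28, adjusted p = 0.876). Genotype label by time in blood gave 0% of 19792 genes (1.17% unadjusted), with 0.74 for Cxcr4 (SE 0.63) and -0.07 for Cxcr1 (SE 0.81). In lung the same term gave 0% of 23211 genes (10.5% unadjusted), with 3.69 for Cxcr1 (SE 1.48, unadjusted p = 0.0285, adjusted p = 0.418) and 1.77 for Cxcr2 (SE 0.78, unadjusted p = 0.0432, adjusted p = 0.461). Without the 3 libraries that lay apart, Cxcr1 had -0.20 and Cxcr2 0.15, where the choice of libraries moves both toward 0. Ccrl2 also came nearer to 0, from -2.04 to 0.06. Cxcr4 turned from 0.89 to -2.11 and Ccr1 from 0.52 to -0.79, both further from 0. The values without the 3 libraries are given without a test.

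Between genotype labels, 0 of 5 receptors were called in each of the 4 direct comparisons, and the libraries of 0 of 5 did not overlap. DESeq2 also called 0 of 5 in each, and unadjusted p were under 0.05 by edgeR only for Cxcr1 in lung at 12 hours. In blood at 0h, edgeR called 0.0115% of genes and 3.35% did not overlap, and the receptors' log2 fold changes of αD KO against WT were -0.47 (Ccrl2) to 0.10 (Ccr1). At 12 hours in blood they were -0.39 (Cxcr2) to 0.31 (Cxcr4), with 0% of genes called (4.01% unadjusted) and 9.76% without overlap. In lung at 0h they were -0.89 (Cxcr1) to 0.62 (Ccrl2), with 0% called (1.86% unadjusted) and 7.58% without overlap. Without library 2 of lung 0h labelled αD KO, Ccrl2 turned to -0.79 and Cxcr1 had -0.41. In lung at 12 hours they were -1.27 for Ccrl2 (SE 0.91), 1.19 for Cxcr2 (SE 0.57) and 2.73 for Cxcr1 (SE 1.02, unadjusted p = 0.0278, adjusted p = 0.598), with 0% called (8.29% unadjusted) and 10.9% without overlap. Without libraries 1a and 2 of the αD KO group, 1 library is left, chosen for lying near WT lung at 12 hours. Cxcr1 then had -0.49, Cxcr2 -0.12 and Ccrl2 -0.75, while Cxcr4 had -1.94 and Ccr1 -0.95. With all libraries kept, Cxcr4 had 0.81 and Ccr1 0.27. In the opposite direction to the -0.49 of Cxcr1, edgeR without the low-count filter called Cxcr1 (2.80, adjusted p = 0.0441), against 0.489% of genes. With libraries 1a and 2 alone in each group, it called Cxcr1 (4.20, adjusted p = 8.11e-05), Cxcr2 (1.62, adjusted p = 0.0107) and Ccrl2 (-2.35, adjusted p = 0.00232), 3 of 5 against 30.1% of 15574 genes. Both αD KO libraries kept in that setting lay at the other time point's end. Averaged over all strata, the receptors had -0.31 (Ccrl2, SE 0.45) to 0.35 (Cxcr1, SE 0.42), each with an adjusted p of 1 and an unadjusted p over 0.05, DESeq2 called 0 of 5, and edgeR called 0.0442% of genes. Without the 3 libraries that lay apart all 5 were negative, from -0.50 (Ccrl2) to -0.28 (Cxcr2), and Cxcr1 turned to -0.34.

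The balance of Cxcr2 to Cxcr4 is given as the ratio of their CPM in each library, a description without a test. In WT blood it was 23.9, 20.1 and 46.2 at 0h and 185, 93.7 and 144 at 12 hours. All 12-hour ratios were higher, by 4.82-fold on average (log2 means 7.08 ± 0.5 and 4.81 ± 0.63, SD, n = 3). Blood labelled αD KO had 39.4, 19.8 and 48.5 at 0h and 52.4, 137 and 85.3 at 12 hours, 2.51-fold higher on average and again without overlap. The fitted log2 fold changes behind it were -0.37 (WT) and -0.69 (αD KO) for Cxcr2 and -2.55 and -2.03 for Cxcr4.

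In lung the ratio overlapped between times. WT lung had 29.2, 10.1 and 19.3 at 0h and 15.7, 88.0 and 8.99 at 12 hours, where library 1b alone was high. Lung labelled αD KO had 21.5, 8.14 and 15.4 at 0h and 19.9, 58.7 and 21.1 at 12 hours, with library 1b again highest. Of these, the libraries that did not lie apart had 21.5 and 8.14 at 0h and 58.7 at 12 hours. Lung ratios lay below blood ratios at 12 hours in WT without overlap (5.86-fold on average), and the other 3 lung to blood contrasts overlapped, at 1.58-fold to 2.91-fold lower.

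**Figure D5:**
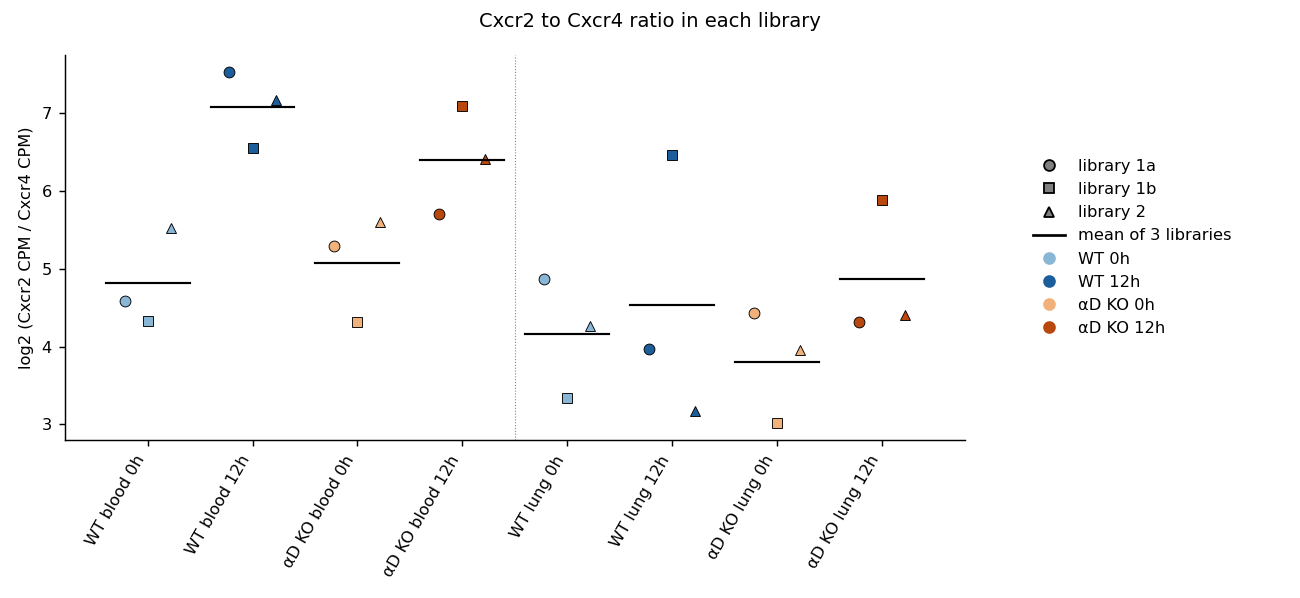
Log2 of the Cxcr2 to Cxcr4 CPM ratio in each library by group, with symbols for libraries and bars for the mean of 3. In blood the 12-hour libraries, 52.4 to 185 as a plain ratio, lay above the 0h libraries, 19.8 to 48.5, and in lung only library 1b of each 12-hour group lay above its 0h libraries.

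Among the 8 groups, with all libraries in the means, neighbours in the order of mean CPM overlapped in nearly all cases. Cxcr2 was highest in WT lung at 0h (3561 ± 1128 CPM) and lowest in blood at 12 hours labelled αD KO (1490 ± 357 CPM), and each of the 7 neighbouring pairs overlapped. The same held for Cxcr1, from lung at 12 hours labelled αD KO (20.3 ± 16.9 CPM) to blood at 12 hours of that label (1.76 ± 1.25 CPM), and for Ccr1, from WT lung at 0h (1885 ± 409.8 CPM) to blood at 12 hours labelled αD KO (1020 ± 431 CPM). Cxcr4 ran from WT lung at 0h (195 ± 41.2 CPM) to WT blood at 12 hours (15.5 ± 5.69 CPM), with a gap only between the blood groups labelled αD KO at 0h and 12 hours. Ccrl2 ran from WT lung at 12 hours (3410 ± 2679 CPM) to blood at 0h labelled αD KO (119 ± 54.8 CPM), with a gap only between WT lung at 0h (988 ± 412 CPM) and the highest blood group (172 ± 123 CPM).

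The ligands of these receptors were measured in the same cells. Of 13 ligand genes, 10 were tested in WT blood (7.75% of all genes rose and 5.75% fell), where Cxcl1 (log2 3.78, SE 0.90, adjusted p = 0.0316 by edgeR) and Cxcl3 (4.71, SE 0.84, adjusted p = 0.0132), both ligands of Cxcr2, rose and 2 fell. The 2 were Ppbp (-3.06, SE 0.70, adjusted p = 0.0277), a platelet-derived Cxcr2 ligand, and Ccl6 (-3.71, SE 0.60, adjusted p = 0.00894), a ligand of Ccr1. The platelet markers summed to 33.7 to 105 CPM at 0h and 3.77 to 20.2 CPM at 12 hours in WT blood, and their part in Ppbp was not tested. In WT lung (5.24% of all genes rose and 3.78% fell) 3 of 13 rose, Cxcl1 (5.13), Cxcl2 (3.37) and Cxcl3 (7.49), and Ccl6 fell (-3.54), with Cxcl3 at 7.41 to 9.68 CPM at 0h and 61.7 to 2476 CPM at 12 hours. Rarres2, which encodes the Ccrl2 ligand chemerin, was called lower in the time average (-3.00, SE 0.85, adjusted p = 0.0257, against a median of -0.51 for all genes) at levels of at most 2.97 CPM. It was too low to be tested in either blood comparison and was not called in lung (-1.23 in WT, adjusted p = 0.357, and -0.69 under the αD KO label, adjusted p = 1). The median log2 fold change of the list was -0.36 in WT blood and 0.82 in WT lung, against -0.15 and 0.03 for all genes.

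Of the 20 other chemokine receptors, 13 were tested in WT blood, with 0 called higher and 3 lower. These were Cxcr3 (-6.75, SE 0.99, adjusted p = 0.00658), Ccr2 (-3.08, SE 0.52, adjusted p = 0.0109) and Ccr3 (-2.97, SE 0.75, adjusted p = 0.0378), known from T cells, monocytes and eosinophils. Cxcr3 had 6.83 to 26.9 CPM at 0h and 0 to 0.365 CPM at 12 hours, and Ccr3 had 2.33 to 6.47 and 0.261 to 0.763 CPM. In WT lung Ccr3 (-2.97) and Cxcr3 (-4.18) were called lower and 0 of 15 higher, and in blood labelled αD KO the same 2 of 12. Ccr1l1, a close relative of Ccr1, was called lower on average over strata (-2.60, SE 0.83, adjusted p = 0.0482) at levels of at most 2.5 CPM. Over all genes, edgeR called 7.75% higher and 5.75% lower in WT blood, 5.24% and 3.78% in WT lung, 3.75% and 4.99% in blood labelled αD KO, and 4.07% and 3.65% in the time average. The list median was -1.36 in WT blood and 0.03 in WT lung. T and NK cell markers summed to 25.9 to 32.4 CPM at 0h and 15.6 to 15.9 CPM at 12 hours in WT blood, and their part in Cxcr3 was not tested.

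Downstream of the receptors, 15 signalling genes were tested in each comparison. In WT blood 2 were called higher and 0 lower, against 7.75% and 5.75% of all genes, among them Plcb3, a phospholipase activated by Gβγ (1.28, SE 0.23, adjusted p = 0.014). In WT lung Gnb1, a Gβ subunit, rose (1.89, SE 0.40, adjusted p = 0.0279) and Pik3cg, the PI3Kγ catalytic subunit, fell (-1.51, SE 0.38, adjusted p = 0.0473). Of 12 receptor desensitisation genes tested, Rgs2, a brake on G protein signalling, fell in WT blood (-3.22, SE 0.44, adjusted p = 0.00523), WT lung (-2.70, SE 0.50, adjusted p = 0.0198) and blood labelled αD KO (-2.47, SE 0.32, adjusted p = 0.00545). The arrestin genes went opposite ways in WT blood, with Arrb1 falling (-1.42, SE 0.28, adjusted p = 0.0174) and Arrb2 rising (1.5, SE 0.36, adjusted p = 0.0323).

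The 8 surface genes used as an ageing panel for neutrophils moved in both directions, with 3 of 8 called higher and 1 lower in WT blood (7.75% and 5.75% of all genes) and a median of 0.40. Itgam (1.81, SE 0.40, adjusted p = 0.0249), Icam1 (2.09, SE 0.57, adjusted p = 0.0482) and Cd47 (2.25, SE 0.43, adjusted p = 0.0162) rose, and Tlr2 rose on average over strata (1.31, SE 0.32, adjusted p = 0.00988). Itga4, the integrin α4 gene, fell from 204 to 298 CPM at 0h to 16.1 to 26.1 CPM at 12 hours (-3.72, SE 0.36, adjusted p = 0.00188). In the difference between genotype labels averaged over strata, 0 genes of the 5 lists were called.

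Over the 24 libraries, Cxcr2 and Cxcr1 varied most alike of the receptors (Pearson r = 0.83, Spearman rho = 0.86 on log2 CPM), and Cxcr4 was nearest to Ccr1 (r = 0.71, rho = 0.73). Ccrl2 had r of 0.47 with Cxcr4, 0.46 with Ccr1, -0.05 with Cxcr2 and -0.14 with Cxcr1. The libraries share groups, depth and tissue, so these are descriptions. Among 6606 genes with a mean of at least 10 CPM, those most like Cxcr1 were Cyb5r1 (r = 0.977), Prickle3 (0.973) and Siglecf (0.97). Cxcr4 was most like Thbd (0.948), Gm16894 (0.923) and Cytip (0.92), and Ccrl2 most like Il23a (0.946), Gadd45b (0.945) and Gm43661 (0.919). Cxcr2 was nearest to Celf2 (0.922), Gm26740 (0.921) and 5830432E09Rik (0.92), and Ccr1 to Nufip2 (0.888), Herc4 (0.881) and Gm20531 (0.88).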

How the data were processed

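RNA of sorted blood and lung neutrophils was made into full-length cDNA libraries and sequenced. Per the labels and the study's methods, reads were trimmed with Trimmomatic 0.36, mapped with STAR 2.5.2b to GRCm38, and reads mapping once were counted over exons. The authors deposited raw counts for 49315 genes in 24 files. The strand of counting is not given in the sources used here. Gene positions equal those of GENCODE M21 for 44820 genes.

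Files were grouped by label, and each was taken as a library because chi-square over degrees of freedom between libraries 1a and 1b was 63.5 to 328.5. Levels are CPM with TMM factors over the 24 libraries. The edgeR 4.0.16 quasi-likelihood test (R 4.3.3, TMM, filterByExpr, two-sided, Benjamini-Hochberg adjustment) was run on the libraries of the groups compared, in 12 pairs, 3 interactions and 3 averages, with DESeq2 1.42.0 as an alternative. The 5 receptors passed the low-count filter throughout. The edgeR script was tested on simulated counts. Tables and plots used Python 3.11.15, pandas 2.3.3 and matplotlib 3.10.9.

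The receptors and lists were chosen with earlier results of these data known. List genes were named when called in WT blood, WT lung or the time average, at most 6 a list by adjusted p, and the 3 genes most alike by correlation. Some list genes that met the rule are not reported here by name. Library numbers come from the labels. Same-numbered libraries deviated together (correlation over 0.1 for every number) in 9 of 12 pairs, so blocked values are given where a call changed. Alternatives were RLE factors, no filter, DESeq2, summed files of sample 1, each library left out, the block, adjusted p alone, all 8 groups in a single fit and the averages without the lung groups labelled αD KO. Libraries 1a and 2 alone, and leaving out 3 lung libraries, were chosen after seeing the data. RefSeq windows are those of the GRCm38.p6 table.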

Additional observations from a re-analysis of the deposited data

How the results depend on the processing

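Counts of receptors called are given, by edgeR unless named. With 1 library left out in turn they were 0 to 2 in WT blood (2 with all libraries), 0 to 1 in blood labelled αD KO (2), 0 to 3 in WT lung (0), 0 to 2 for WT lung against blood at 12 hours (0), 0 to 3 for the same under the αD KO label (0), 1 to 2 for the time average (2, with Cxcr4 lost without library 1b of blood at 0h labelled αD KO) and 2 to 2 for the tissue average. DESeq2 called 2 in WT lung over time, against 5.6% of genes. For lung against blood at 0h it called 1 in each label, against 0.104% (WT) and 0.265% (αD KO). At 12 hours it called 2 (WT) and 3 (αD KO), against 2.16% and 3.07%. Without the low-count filter the count was 1 in WT lung over time, where 1331 of 42259 genes were called. It was 2 (WT) and 3 (αD KO) for lung against blood at 12 hours (650 of 40769 and 1293 of 41346 genes). For lung against blood at 0h under the αD KO label it was 1 (62 of 43195 genes). Between labels in lung at 12 hours it was 1 (207 of 42338 genes). Summing the files of sample 1 gave 3 in WT lung (2337 of 19014 genes called) and 1 in blood labelled αD KO (635 of 16521). For lung against blood at 12 hours it gave 1 in WT (748 of 16740 genes) and 3 for αD KO (1441 of 17428). All 8 groups in a single fit gave 0 in both blood comparisons, with adjusted p of 0.0718 and 0.259 for Cxcr4 and 0.077 and 0.0947 for Cxcr1. The replicate block by library number gave 1 for WT lung against blood at 12 hours and changed no other receptor call. The tissue average had 0 calls without the lung groups labelled αD KO (4 of 25511 genes called). No counts are given without the 3 libraries that lay apart, which were picked by their place on the time axis. With libraries 1a and 2 alone, the count was 3 in WT lung, where 5299 of 14258 genes were called. For lung against blood at 12 hours it was 2 in WT (3779 of 13385 genes) and 4 for αD KO (4881 of 14240). Between labels in lung at 12 hours it was 3 (4686 of 15574 genes). The tissue by time interaction had 1 (1167 of 15750 genes) and the lung label by time interaction 2 (2480 of 18773). The time average had 1 (2150 of 19914 genes). RLE factors and the adjusted p alone kept each count. Called values turned sign in 0 cases, 109 of 1423 uncalled values did, and 0 of 200 CPM means and 0 ratios moved by over 1 SD. Called genes overall numbered 1975 in WT blood (944 to 3201 over the other alternatives, 2 to 2804 with single libraries omitted), 1340 in WT lung (447 to 5299, 0 to 3941), 1238 in blood labelled αD KO (64 to 2200, 74 to 1414), 6 and 8 for lung against blood at 12 hours (6 to 3779 and 0 to 4881, 0 to 2916 and 0 to 1691), 0 between labels in lung at 12 hours (0 to 4686, 0 to 209), 2096 for the time average (1738 to 3559, 1578 to 2777) and 434 for the tissue average (4 to 1465, 260 to 565). The causes were not tested. Cxcr1 had as few as 12 counts in a library, which limits its precision.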
